A study of Homo sapiens with 3 samples.

Results

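The SP genes encode the GC-box branch of the SP and KLF zinc-finger transcription factors, and 9 of them, SP1 to SP9, are annotated in the human genome. The group, 9 of 19866 protein-coding genes, was chosen by the ARID1B peaks found at SP2 and SP1, so the positions and scores of these peaks are described here without a test. For each gene, peaks were counted within 1000 bp of either annotated end, inside the gene and within 100 kb of it. The peaks come from chromatin immunoprecipitation followed by sequencing (ChIP-seq) for ARID1B in HEK293FRT, a line derived from HEK293 human embryonic kidney cells. For genotype and for treatment the labels of all samples read none. Of 3 samples, 2 were ARID1B ChIP replicates with 1 peak list each, and 1 was an input, which was not analysed here. Nothing in the labels ties the replicates to separate cultures, so differences between them may be technical. The antibody is not given in the sources used here. The lists hold peaks only, so the cell line could not be checked against expressed markers, and sequencing depth is unknown.

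ARID1B is a subunit of the BAF (SWI/SNF) complexes, which use ATP to slide or evict nucleosomes. SP proteins share a run of C2H2 zinc fingers near the carboxyl end that read GC boxes, short G-rich sites common in the promoters of broadly expressed genes. SP1, SP3 and SP4 carry glutamine-rich activation domains, SP2 binds GC boxes weakly and has been found with the CCAAT-box factor NF-Y at promoters in mouse cells, and SP5 to SP9 act mostly in the development of limbs, bone, teeth and forebrain.

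SP2 and SP1 had an ARID1B region at the gene start, and the other 7 SP genes had none at either end. A region is a place where peaks of both replicates overlap. The starts are shown first, because they carry the peaks. Each line is a RefSeq promoter window (GRCh38.p14), 250 bases before an annotated start to 50 bases from it, written 5′ to 3′ in the direction of the gene. Capitals mark CCAAT or its complement ATTGG, the box of NF-Y, and GGGCGG or its complement CCGCCC, the GC box. The SP2 window lies at chr17:47895986-47896285 and the first SP1 window at chr12:53379926-53380225, both on the plus strand and both under ARID1B peaks. The second SP1 window, chr12:53380394-53380693, belongs to a start 468 bp further down and is shown because no peak touched it. The SP4 window, chr7:21427833-21428132 on the plus strand, and the SP5 window, chr2:170715087-170715386 on the plus strand, are shown as starts of SP genes without a peak.
SP2: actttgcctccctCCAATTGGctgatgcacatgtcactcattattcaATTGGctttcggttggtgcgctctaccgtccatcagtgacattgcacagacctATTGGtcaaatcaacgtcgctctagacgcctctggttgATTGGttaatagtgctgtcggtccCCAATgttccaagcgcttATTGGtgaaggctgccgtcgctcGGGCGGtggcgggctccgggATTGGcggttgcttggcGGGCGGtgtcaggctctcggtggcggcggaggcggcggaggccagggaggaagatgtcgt
SP1 window 1: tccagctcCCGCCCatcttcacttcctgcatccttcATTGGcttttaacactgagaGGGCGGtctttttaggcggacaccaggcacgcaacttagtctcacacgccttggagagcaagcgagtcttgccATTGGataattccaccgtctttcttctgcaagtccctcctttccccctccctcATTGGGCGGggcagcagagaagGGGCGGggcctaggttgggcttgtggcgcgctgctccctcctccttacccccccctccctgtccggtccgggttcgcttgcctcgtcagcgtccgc
SP1 window 2: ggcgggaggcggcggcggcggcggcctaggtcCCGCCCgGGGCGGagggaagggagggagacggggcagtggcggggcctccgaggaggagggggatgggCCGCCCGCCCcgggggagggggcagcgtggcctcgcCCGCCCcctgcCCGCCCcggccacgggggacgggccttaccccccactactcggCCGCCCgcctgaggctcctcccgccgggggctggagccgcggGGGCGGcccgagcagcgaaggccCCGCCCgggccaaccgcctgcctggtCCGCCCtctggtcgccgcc
SP4: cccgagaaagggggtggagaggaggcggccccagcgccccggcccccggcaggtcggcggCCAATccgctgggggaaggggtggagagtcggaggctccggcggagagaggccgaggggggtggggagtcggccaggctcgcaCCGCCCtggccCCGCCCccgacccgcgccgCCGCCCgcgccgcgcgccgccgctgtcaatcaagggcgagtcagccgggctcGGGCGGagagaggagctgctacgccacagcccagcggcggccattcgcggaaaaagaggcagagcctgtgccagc
SP5: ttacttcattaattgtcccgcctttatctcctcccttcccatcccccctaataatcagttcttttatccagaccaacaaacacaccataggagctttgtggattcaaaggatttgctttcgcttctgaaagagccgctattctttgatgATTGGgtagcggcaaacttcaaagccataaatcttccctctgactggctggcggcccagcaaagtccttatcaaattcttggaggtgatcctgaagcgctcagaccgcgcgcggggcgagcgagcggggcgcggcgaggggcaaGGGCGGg

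SP2 scored 1210 in replicate 1 and 1461 in replicate 2, the second highest of 1792 peaks and the second highest of 1820. The score is the authors' own, of unstated scale, and serves only to rank peaks within a list. The median peak scored 74.0 in replicate 1 and 75.0 in replicate 2. SP1 scored 635 in replicate 1 and 848 in replicate 2, which placed it 9th and 7th. The order SP2 above SP1 was the same in both lists.

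The peaks at both genes were wide. At SP2 they measured 644 bp in replicate 1 and 734 bp in replicate 2, and at SP1 657 and 716 bp, where the median widths of the lists were 290 and 300 bp. By width SP2 ranked 42nd and 21st and SP1 38th and 29th, far behind their ranks by score. Wide peaks were common among high scores: the other 18 of the 20 highest-scoring peaks had a median width of 562 bp (333 to 846) in replicate 1 and 614 bp (433 to 999) in replicate 2. Apart from those at SP2 and SP1, 57 peaks of replicate 1 and 80 of replicate 2 were at least 600 bp wide, and their median scores, 205 and 192, lay well below those of SP2 and SP1.

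**Figure D1:**
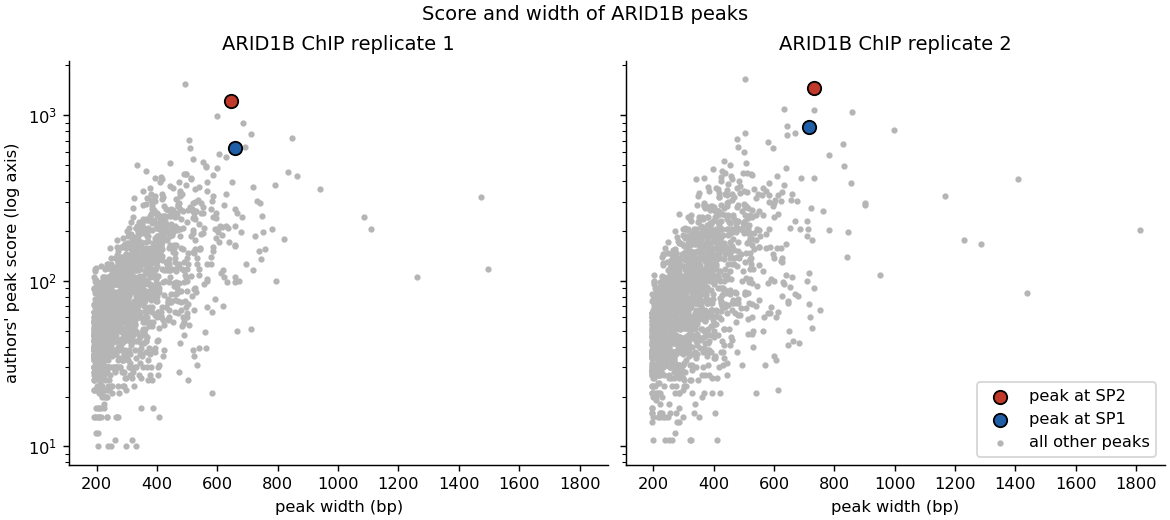
Score of each ARID1B peak, on a log axis, against its width in bp, with replicate 1 on the left and replicate 2 on the right. Grey points are all other peaks and the filled circles are the peaks at SP2 (1210 and 1461) and SP1 (635 and 848), which sit near the top of both lists at widths of 644 to 734 bp.

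At SP2 the peaks spanned the start. The replicate 1 peak ran from 473 bp before the annotated start to 170 bp inside the gene, and the replicate 2 peak from 471 bp before it to 262 bp inside. Their left edges differed by 2 bp and their right edges by 92 bp, and 642 bp were common to both, 99.7% of the replicate 1 peak and 87.5% of the replicate 2 peak. The joint region, chr17:47895763-47896498, also covered the first 54 bp of SP2-DT, a long non-coding RNA gene on the minus strand named as the divergent transcript of SP2. The annotated starts of SP2-DT and SP2 lie 420 bp apart, and the region held the whole of that gap. The other RNA gene nearby, SP2-AS1, lay outside, with an end 1888 bp from the region.

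At SP1 the peaks lay almost wholly before the start. The replicate 1 peak ran from 682 to 26 bp before the annotated start and did not enter the gene, and the replicate 2 peak ran from 703 bp before it to 12 bp inside. The replicate 1 peak lay entirely within the replicate 2 peak, and the shared 657 bp made up 91.8% of the replicate 2 peak. Peak centres lay 354 and 346 bp before the start at SP1, against 152 and 105 bp before it at SP2. The SP1 region, chr12:53379473-53380188, ended 205 bp short of the window of the second SP1 start. No other annotated gene had an end within 5000 bp of the SP1 region. Among the 209 protein-coding genes with a region at an end, 178 had a listed promoter window, and in 128 of these (71.9%) the region lay within 1000 bp of a listed start, as it did at SP2 and SP1.

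**Figure D2:**
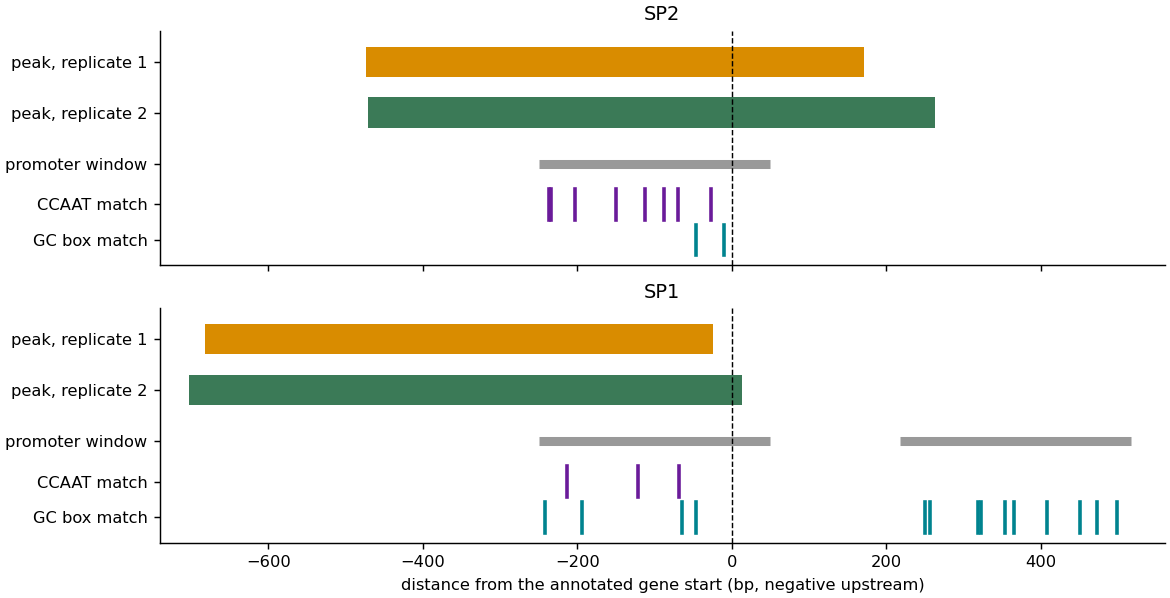
Position of the ARID1B peaks of both replicates (bars) at SP2 (top) and SP1 (bottom), in bp from the annotated gene start, with the promoter windows in grey and each CCAAT or GC-box match as a tick. The SP2 peaks cover the start and the whole promoter window with its 8 CCAAT matches. The SP1 peaks cover the first window's 3 CCAAT matches and stop before the GC-box-rich second window.

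The promoter windows of SP2 and SP1 differed from those of the other SP genes in their CCAAT boxes. The table listed 9 windows for 6 of the 9 genes, SP1, SP2, SP3, SP4, SP5 and SP8; SP6, SP7 and SP9 were not listed. The SP2 window held 8 CCAAT matches, counting both strands, and the first SP1 window held 3. The other 7 windows, of SP1, SP3, SP4, SP5 and SP8, held 0 or 1. Of 22199 windows of protein-coding genes, 34.7% held at least 1 CCAAT, 3.61% held 3 or more, and only the SP2 window held 8. In SP2, 2 of the matches share letters, because CCAATTGG reads as the box on both strands; counted without overlaps SP2 had 7 places, the same number as SERPINE2 and TEDC1, and no window had more. These windows of SERPINE2, a protease inhibitor gene, and TEDC1, a centriole protein gene, held 7 matches each and were not overlapped by a region. Both were picked after their values were seen.

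The CCAAT matches of SP2 were spread over the whole stretch before the start. Their first letters stood 237, 234, 203, 150, 112, 88, 70 and 27 bases before the start, 6 of them as ATTGG and 2 as CCAAT in the direction of the gene. In SP1 they stood 214, 121 and 68 bases before the start, all 3 as ATTGG. The 8 matches of SP2 and the 3 of the first SP1 window lay inside the peaks of both replicates. Both peaks covered the whole SP2 window and most of the first SP1 window, so this follows from the extent of the peaks. The windows begin 250 bases before a start, so peak sequence further upstream was not searched. At SP1 that includes the peak centres, 354 and 346 bp before the start. The single CCAAT matches of SP4, SP5 and SP8, and that in 2 of the 3 SP3 windows, stood 190, 101, 77, 74 and 14 bases before their starts, and no ARID1B region overlapped these windows.

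GC boxes, the sites that SP proteins themselves read, did not follow the peaks within the family. The SP2 window held 2 and the first SP1 window 4, all inside the peaks of both replicates. In SP1 the third CCAAT match and a GC box share 2 letters, in ATTGGGCGG. The second SP1 window, without a peak, held 10, a number that 0.257% of all windows reached. SP4 held 4 and SP8 3, and the windows of SP3 and SP5 held 1 or 2. At least 1 GC box was found in 56.3% of all windows and 3 or more in 20.7%. The TATA box, searched as TATAAA on both strands, was found in 0 of the 9 SP windows and in 9.47% of all windows. The E-box CACGTG was found in 0 of the 9 and in 8.34% of all. The cyclic AMP response element, searched as TGACGTCA, was likewise found in 0 of the 9 and in 2.26% of all. The G and C content was 58.0% in the SP2 window and 60.7% in the first SP1 window, lower than in SP4 (76.7%) and the second SP1 window (83.3%) and higher than in SP5 (52.3%). A match is a run of letters, not a bound site.

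**Figure D3:**
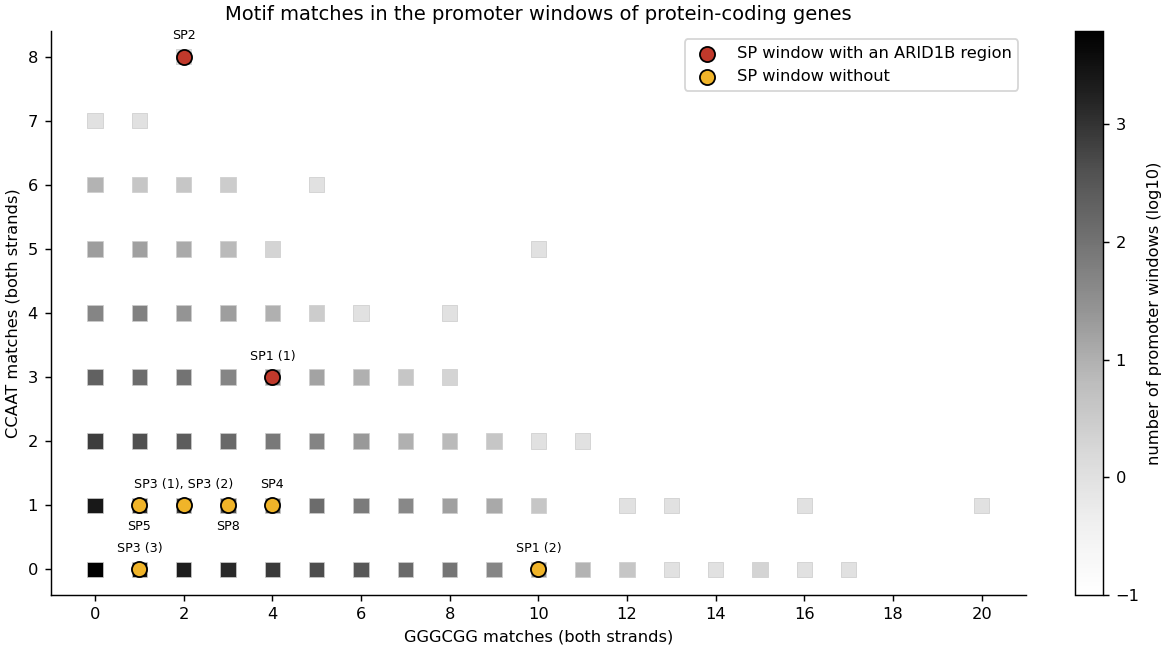
Number of CCAAT matches against number of GGGCGG matches in the promoter windows of protein-coding genes, where the shade of each square gives how many windows hold that pair of counts (log10) and circles mark SP windows, with window numbers in brackets. SP2 stands alone at 8 CCAAT matches, SP1 window 1 has 3, and the SP windows without an ARID1B region have 0 or 1.

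The same count was then read over all other promoter windows. A region overlapped 0.590% of the 22199 windows. Without the SP genes, a region overlapped 0.186% of the windows with no CCAAT (27 of 14496, exact Clopper-Pearson 95% interval 0.123 to 0.271), 1.21% of those with 2 (0.751 to 1.84), 5.46% of those with 3, the count of SP1 (3.72 to 7.71), and 19.5% of those with 5 or more (16 of 82, 11.6 to 29.7). With 3 or more the share was 8.14% (65 of 799). With all replicate 2 peaks these shares were 0.428% without CCAAT and 12.3% with 3 or more, and with the peaks from each list's median score up 0.0690% and 4.63%. The class of 3 or more was set by the count in SP1. For GC boxes the share was 0.237% with 0 (0.150 to 0.355), 0.862% with 1, 0.799% with 2, the count of SP2, and 0.791% with 4 or more, the class of SP1 (0.490 to 1.21). Among windows with a G and C content below the median of 62.3%, where SP2 and SP1 fall, the share was 6.90% with 3 or more CCAAT and 0.108% with 0; among the others it was 9.97% and 0.250%. Windows of 1 gene can overlap and neighbouring genes can share a region, so the windows are not independent. The intervals cover counting error only, and no test was made. Most windows with as many CCAAT matches as SP1 had no region.

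**Figure D4:**
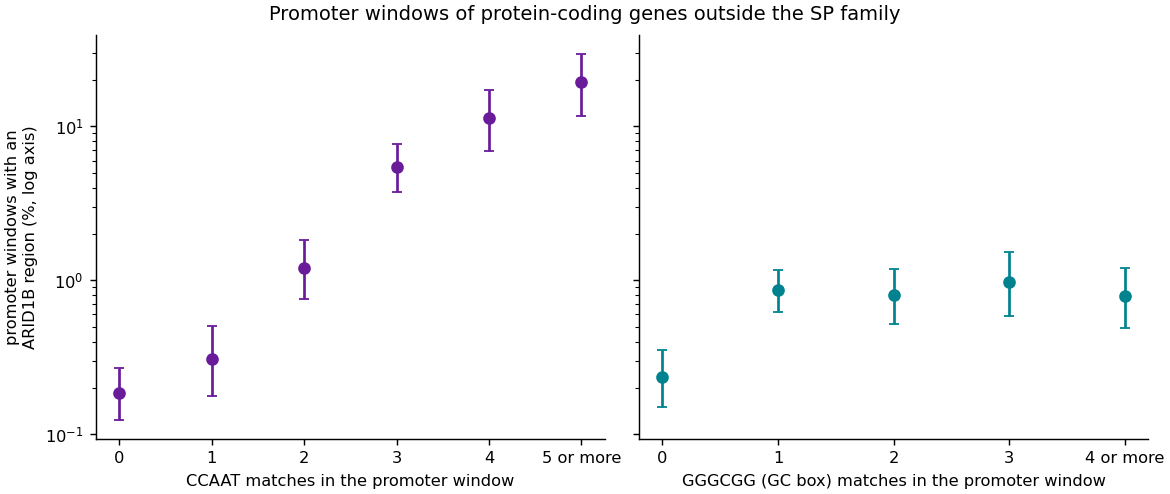
Percentage of promoter windows outside the SP family that an ARID1B region overlaps (log axis), by number of CCAAT matches (left) and of GC boxes (right), with exact 95% intervals as bars. The share goes up to 19.5% at 5 or more CCAAT matches, against 0.186% with none, and lies between 0.791% and 0.978% for 1 or more GC boxes.

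Counted by position, 2 of 9 SP genes (22.2%) had a region within 1000 bp of an end, where 1.05% of all protein-coding genes did, and the same 2 genes had one in each replicate's own list, where the background was 1.14% and 1.80%. A region lay inside 2 of 9, against 2.80% of all protein-coding genes; at SP1 this rests on the 12 bp by which the replicate 2 peak enters the gene. Within 100 kb it was 4 of 9 (44.4%), against 11.8%. The group was chosen for these peaks, so nothing is read from the difference. The 4 genes were SP2, SP1, SP6 and SP7, and they share 2 regions, because SP2 lies beside SP6 and SP1 beside SP7.

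SP6, the epiprofin gene of tooth development, lies 19.9 kb from SP2 on chromosome 17, and the SP2 region lay 19.5 kb from it. SP7, the gene of the bone-forming factor osterix, lies 35.4 kb from SP1 on chromosome 12, and the SP1 region lay 34.7 kb from it. Neither SP6 nor SP7 had a peak of its own in either list. Each list held 2 peaks within 100 kb of any SP gene, and both were those at SP2 and SP1. The region just outside that distance lay 116 kb from SP2, with scores of 89 and 64, and overlapped both COPZ2, a gene for a vesicle coat protein, and NFE2L1, a gene for a transcription factor of proteasome genes.

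Within 400 kb the surroundings of SP2 held more peaks than those of SP1. Peaks at this distance were not counted for all genes, so nothing is read from the difference. Around SP2 there were 5 peaks in replicate 1 and 4 in replicate 2. The next highest lay 246 kb from SP2 at an end of KPNB1, the gene of the nuclear import receptor importin beta, with scores of 124 and 189. A weaker region lay inside SKAP1, an adaptor gene of T cells, 308 kb away, with scores of 96 and 52. A replicate 1 peak of score 25, 256 kb away, was not found in replicate 2. Around SP1 there was nothing further in replicate 1 and 1 further peak in replicate 2, of score 31, 210 kb away at an end of ATF7-NPFF and inside ATF7, a transcription factor gene. The peaks at SP2 and SP1 were the highest of their surroundings in both lists. The group was chosen for these high-scoring peaks, so nothing is read from this.

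The other 5 genes were farther from any region. SP3, broadly expressed like SP1 and a competitor for its sites, had its nearest region 247 kb away, with scores of 116 in replicate 1 and 37 in replicate 2, and 2 peaks of replicate 1 alone beyond it, scoring 49 and 47. SP9, a gene of forebrain interneuron development in mice, lay 681 kb from the same region, and SP5, a target gene of Wnt signalling, 2935 kb from it. SP4, most active in neurons, and SP8, a limb and forebrain gene in mice, lay 1758 and 2486 kb from their nearest region, which was inside GPNMB, a membrane glycoprotein gene, with scores of 67 and 39. SP4, SP5, SP8 and SP9 had no peak within 400 kb in either list. Over all protein-coding genes the median distance to the nearest region was 796 kb, so SP3 and SP9 lay nearer than the median gene and SP4, SP8 and SP5 farther. A gene without a peak in these lists may still be bound below the level at which peaks were called.

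**Figure D5:**
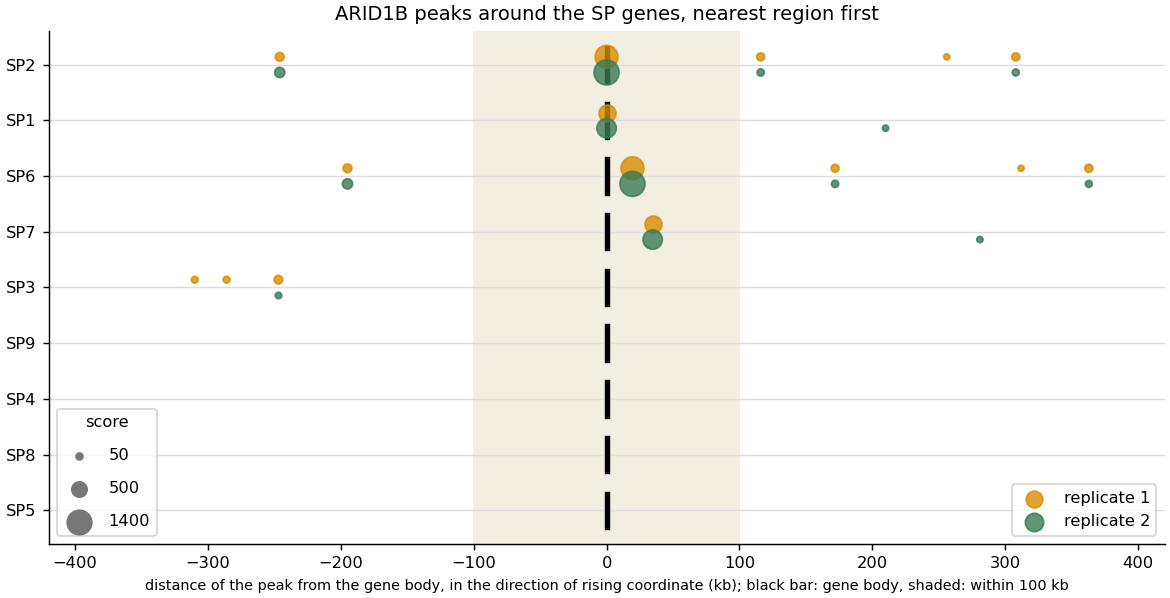
ARID1B peaks within 400 kb of each SP gene, with replicate 1 above replicate 2 in each row and circle size giving the score; the horizontal axis is the distance in kb from the gene body, drawn as a black bar without its length, in the direction of rising coordinate. SP2 and SP1 carry the large circles at the gene, SP6 and SP7 see the same peaks at 19.5 and 34.7 kb, and SP9, SP4, SP8 and SP5 have none.

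The direct protein-coding neighbours described here, apart from SP2 and SP1, had no peak at an end. Most genes have none: over all protein-coding genes 1.14% had a peak there in replicate 1 and 1.80% in replicate 2. Of the direct protein-coding neighbours, AMHR2, 7.41 kb from SP1, SCRN2, 3.63 kb from SP6, AAAS, 4.96 kb from SP7, and CIRSR, 9.52 kb from SP9, had none in either list. Neither did DNAH11 beside SP4, ABCB5 beside SP8, MYO3B and ERICH2 beside SP5, CDCA7 beside SP3, or OLA1, which lies between SP3 and SP9.

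Genes with scores like those of SP2 and SP1 were picked among the 209 protein-coding genes with a region within 1000 bp of an end, by the distance between log2 scores over the 2 lists, so high-scoring peaks elsewhere were not compared. The distance served only to pick genes, since the scale of the score is unstated. The 5 picked for SP2 were DNM2, WDR27, SP1, EVI5L and NLK, and those for SP1 were NLK, EVI5L, WDR27, CIC and DRC3; TOM1L2, which shares the DRC3 region and so ties with it, also had 3 CCAAT matches. DNM2, the gene of the membrane-scission enzyme dynamin 2, had 3 CCAAT matches in an overlapped window like SP1. DRC3, a gene of the ciliary dynein regulatory complex, had 2 windows with up to 3 matches and a window overlapped by the region. CIC, a repressor gene, had up to 4 and EVI5L 1, in each case with a window overlapped by the region. The WDR27 region was not at the listed start of that gene, whose window held 0 matches, and NLK had no listed window.

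Among the related factors counted here, the peaks at SP2 and SP1 had no counterpart of similar score. The SP genes were chosen for these peaks, so nothing is read from this. None of the 17 KLF genes, the other branch of the same zinc-finger family, had a region within 1000 bp of an end. KLF6, a broadly expressed growth regulator, had a region inside, 1040 bp from an end and so just past the limit, with scores of 49 and 91. KLF12 had its higher-scoring region 18.2 kb away (197 and 161) and KLF1, the erythroid factor, had a region 32.0 kb away (40 and 72), which made 3 of 17 within 100 kb (17.6%, against 11.8% of all protein-coding genes). The 26 promoter windows of 15 KLF genes held 0 to 2 CCAAT matches, where 3.61% of all windows held 3 or more. That none of the 26 held 3 is near this share and is no result about KLF genes. The 3 NF-Y subunit genes had no region at an end, and NFYA had one 75.2 kb away, with scores of 36 and 37; a window of NFYC held 3 CCAAT matches and was not overlapped.

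Of 15 other zinc-finger genes for factors of GC-rich sites, 2 had a region at an end (13.3%, against 1.05% of all protein-coding genes). The list was chosen with earlier results of these data known, so nothing is read from the difference. MAZ had one 225 bp from an end with scores of 46 and 81, and ZBTB7B, a regulator of T cell fate, one 722 bp from an end with 69 and 84. Within 100 kb it was 5 of 15 (33.3%, against the same 11.8%), with CTCFL, ZBTB7A and ZNF281 besides. The scores at MAZ and ZBTB7B lay near or below the list medians, and far below those of SP2 and SP1. Of 16 genes for known partners of SP1, such as TBP, EP300 and HDAC1, 0 had a region at an end in both replicates. OGT, the enzyme gene of protein O-GlcNAc modification, had a peak there in replicate 2 alone, with a score of 43. Within 100 kb it was 1 of 16 (6.25%, against 11.8%), TAF1, with a region 71.8 kb away. A count of 0 of 3, 0 of 16 or 0 of 17 in lists where 1.05% of genes are reached is near the background and is no result about these genes.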

How the data were processed

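The authors deposited 1 peak list per ARID1B ChIP replicate, with a position and a whole-number score per peak. The submitters' processing notes name the build hg38 and the tools MACS2 2.1.2, Bowtie2 2.3.4.1 and bcl2fastq 2.20.0.422. Settings, peak threshold, duplicate handling and any role of the input were not given in the sources used here. Kept PCR duplicates would raise scores. Starts were converted to count from 1. Peaks overlapping by at least 1 bp between the lists were joined into 1313 regions. Genes came from a RefSeq table of GRCh38.p14 (58961 genes kept, 718 on other sequences left out) and promoter windows from RefSeq (15843 protein-coding genes). Motifs were exact letters on both strands.

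The members and gene lists were chosen with earlier results of these data known. Named genes were the members, their nearest neighbours, genes at an end of a counted peak, list members with a region at an end, and the 5 genes nearest in log2 scores to SP2 and to SP1; genes with regions only inside or within 100 kb, those around the wider neighbourhood, OGT, NFYC, SERPINE2 and TEDC1 were named after their values were seen. No test was made; intervals are exact Clopper-Pearson 95%. The overlap and motif counts were tested on simulated data. Protein sequences were not used here. Python 3.11, pandas 2.3.3 and scipy 1.17.1 were used. A neighbouring gene is not reported here.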

Additional observations from a re-analysis of the deposited data

How the results depend on the processing

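The counts of SP genes with a region at an end (2) and within 100 kb (4) stayed within 1.5 times under every alternative run on them. The count with a region inside was 1 with replicate 1 alone and 2 with replicate 2 alone. Peaks within 200 kb of an SP gene numbered 4 in replicate 1 and 4 in replicate 2, against 2 within 100 kb in each. KLF genes with a region at an end became 1 within 5000 bp, zinc-finger genes of GC-rich sites became 1 within 500 bp and 0 among the higher-scoring peaks of each list, from its median score up, and SP1 partner genes ran from 0 with replicate 1 alone to 1 with replicate 2 alone.

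The alternatives for promoter windows were chosen after seeing the data. Windows with 3 or more CCAAT were overlapped in 4.63% of cases among the same higher-scoring peaks and in 8.14% to 12.3% with 1 list alone; windows without CCAAT in 0.0690% and in 0.172% to 0.428%. The causes were not tested. No paired analysis was possible because the ChIP replicates share the same condition and the input was not analysed here. Depth is unknown, so it cannot be said what lies below the peak threshold.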
